A study of Mus musculus with 53 samples.

Results

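High-fat feeding was compared with chow feeding in the paraventricular nucleus of the hypothalamus (PVN) of wild-type male mice. The comparison used 9 of the 53 samples in the series, taken by their labels: 6 wild-type mice on a 45% high-fat diet (HFD; libraries 23 to 28) and 3 wild-type mice on chow (libraries 13, 14 and 15). All were Nnat+/+ males on a C57BL/6 background, born to wild-type mothers and fathers heterozygous for a deletion of the imprinted gene neuronatin (Nnat), and were killed at 13 to 14 weeks of age. The fat content is that of the labels, and the catalogue number and length of feeding in the study's methods are hard to reconcile with it and with the age. The labelled body weights were 31.4 to 33.5 g on chow and 37.4 to 42.9 g on HFD. Each library is RNA from the PVN cut by laser from cresyl violet-stained sections, sequenced as total RNA after amplification of a very small input. The mice given HFD were raised as a cohort of their own, so that diet and cohort cannot be told apart. For reference, the same table holds 10 libraries from Nnat+/-p mice, which lack the expressed paternal Nnat copy in every cell: 3 non-obese on chow (18, 19, 22), 4 obese on chow (16, 17, 20, 21) and 3 on HFD (29, 30, 31).

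The PVN is the main output nucleus of the hypothalamus for hormones and appetite. Its magnocellular neurons make vasopressin (Avp) and oxytocin (Oxt), and its parvocellular neurons make corticotropin-releasing hormone (Crh), thyrotropin-releasing hormone (Trh) and somatostatin (Sst). It receives leptin-sensitive input from the arcuate nucleus (ARC) through the melanocortin 4 receptor (Mc4r), and its neurons develop under the transcription factors Sim1 and Otp. A fat-rich diet is known for its effects on this circuit, on hypothalamic glia and on the stress axis.

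Depth moved with diet. The chow libraries held 3192351, 4588647 and 6139659 counts and the HFD libraries between 5582716 and 8560199. Nnat was at 364 to 461 CPM (counts scaled to a common library size with TMM factors) on chow and at 399 to 506 CPM on HFD, against at most 15.4 CPM in any Nnat+/-p library, as the genotype labels require. The weight of library 24 (42.9 g) recurs in Nnat+/-p ARC library 51, and that of Nnat+/-p library 30 (43.9 g) in wild-type ARC library 44, so that labels of weight or genotype may be exchanged between the tables. Nnat followed the genotype label in each, at 486 and 4.02 CPM in libraries 24 and 30 and at 3.95 and 462 CPM in ARC libraries 51 and 44. The labelled nucleus was checked by its markers. Avp, Oxt, Crh and Sim1 together reached 1271 and 1080 CPM in chow libraries 13 and 14, but 2.18 CPM, or 12 counts, in chow library 15. In HFD library 24 they reached 41.4 CPM, or 221 counts, and in the other 5 HFD libraries 463 to 1985 CPM. Libraries 15 and 24 were therefore poor in PVN neurons by these markers, and results are given with and without them. Summed over the 7 markers Avp, Oxt, Crh, Trh, Sst, Sim1 and Otp, the level was 1056 ± 814 CPM on chow (SD, n = 3) and 1432 ± 825 CPM on HFD (SD, n = 6), and the groups overlapped (p = 0.512 in an exact permutation test, two-sided, whose 84 splits allow no p below 0.0119). In bulk tissue of this kind, fewer cells of a type and less RNA per cell cannot be told apart.

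Of 17576 genes tested, 251 (1.43%) were called at a Benjamini-Hochberg adjusted p under 0.25 in edgeR's quasi-likelihood test, the threshold of the study. HFD-fed PVN had 55 genes higher (0.313% of those tested) and 196 lower (1.12%). At an adjusted p under 0.05 the number was 26 (0.148%), of which 4 were higher and 22 lower. Every HFD library was above every chow library for 47 of the 55 higher genes, and below every chow library for 118 of the 196 lower genes, whereas 3.06% and 2.8% of all genes tested were separated in these ways. The higher genes changed less, with a median log2 fold change of 1.31 (log2 fold changes are HFD minus chow throughout), and had a median level of 10.1 CPM on chow and 24.5 CPM on HFD. The lower genes had a median log2 fold change of -4.46, or -4.39 with the genes absent from a whole group set at the bound that 3 counts allow. Their median level was 7.44 CPM on chow and 0.34 CPM on HFD, and 38 of them had no count in any HFD library. Of the 55 higher genes, 6 had no count in any chow library. Over all 17576 genes tested, 93 had no count in any HFD library and 166 had none in any chow library. Such genes passed the filter through libraries of other groups. The median log2 fold change of all genes tested was -0.03.

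**Figure D1:**
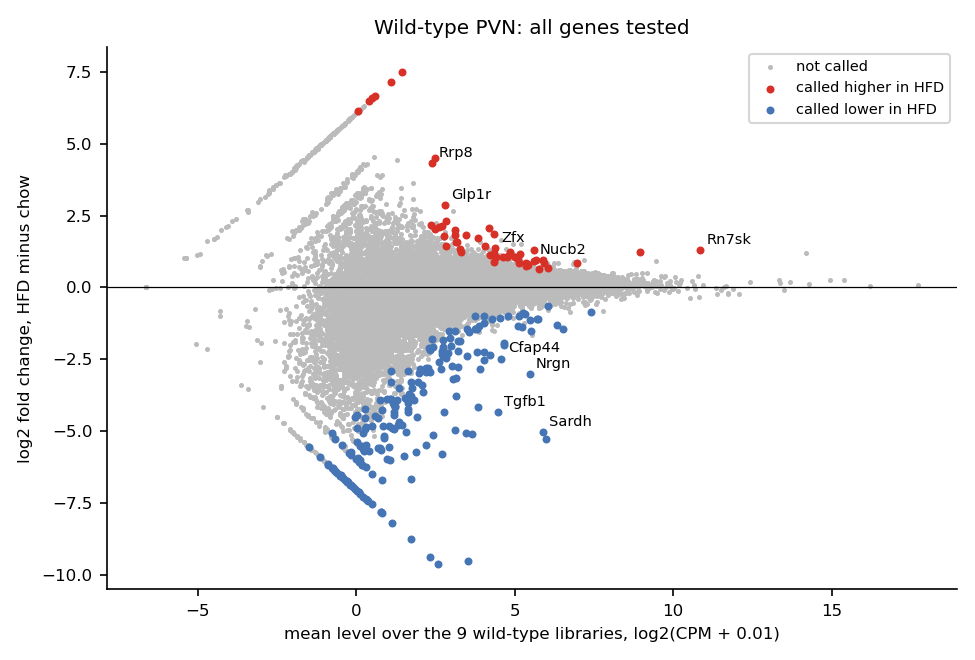
Log2 fold change of HFD over chow (vertical axis) against mean level over the 9 wild-type libraries (horizontal axis, log2 of CPM + 0.01) for the 17576 genes tested; red points are the 55 genes called higher in HFD, blue points the 196 called lower and grey points the rest. The lower genes lie at larger fold changes and lower levels than the higher genes. The straight lines of points at the edges are genes with no count in one group.

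The gene with the smallest p among those that rose was Glp1r, the receptor for the gut and hindbrain peptide GLP-1, which restrains feeding. Rrp8, a nucleolar protein of ribosomal RNA gene silencing, Zfx, an X-linked zinc finger transcription factor, and Kbtbd8, a substrate adaptor of a cullin ubiquitin ligase, were the other genes higher at an adjusted p under 0.05. Upstream sequence is shown for 3 of these genes and for 3 protein-coding lower genes, so that genes which moved together can be read side by side. They were chosen after their values were seen, from genes whose RefSeq start lies close to the annotated gene start, which that of Kbtbd8 does not. Each run covers the bases from 250 to 51 before the RefSeq start in GRCm38.p6 and reads 5′ to 3′ on the gene's strand. Capitals mark matches, on either strand, to the CCAAT box (CCAAT) and the GC box (GGGCGG). Overlapping matches to the GC box merge into 1 run of capitals.
Glp1r, chr17:30901617-30901816, plus strand, higher: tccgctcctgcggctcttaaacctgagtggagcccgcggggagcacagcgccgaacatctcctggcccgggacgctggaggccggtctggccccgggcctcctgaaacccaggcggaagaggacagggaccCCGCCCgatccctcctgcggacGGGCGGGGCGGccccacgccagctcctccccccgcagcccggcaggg
Rrp8, chr7:105737436-105737635, minus strand, higher: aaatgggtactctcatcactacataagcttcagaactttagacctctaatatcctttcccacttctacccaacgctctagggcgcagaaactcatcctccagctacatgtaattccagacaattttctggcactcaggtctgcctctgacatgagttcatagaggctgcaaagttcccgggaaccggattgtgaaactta
Zfx, chrX:94123818-94124017, minus strand, higher: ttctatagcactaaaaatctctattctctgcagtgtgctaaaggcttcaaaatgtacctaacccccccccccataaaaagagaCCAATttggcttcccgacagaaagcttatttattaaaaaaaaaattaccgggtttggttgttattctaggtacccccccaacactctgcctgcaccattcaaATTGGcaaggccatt
Tgfb1, chr7:25686752-25686951, plus strand, lower: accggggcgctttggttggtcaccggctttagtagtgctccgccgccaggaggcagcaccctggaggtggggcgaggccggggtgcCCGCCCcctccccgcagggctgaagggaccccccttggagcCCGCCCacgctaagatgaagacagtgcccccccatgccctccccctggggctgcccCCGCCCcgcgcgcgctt
Cfap44, chr16:44394549-44394748, plus strand, lower: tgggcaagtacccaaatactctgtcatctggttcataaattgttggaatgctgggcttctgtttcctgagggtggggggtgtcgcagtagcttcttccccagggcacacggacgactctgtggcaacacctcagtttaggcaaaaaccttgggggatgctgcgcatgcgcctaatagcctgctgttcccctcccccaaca
Fam83d, chr2:158767849-158768048, plus strand, lower: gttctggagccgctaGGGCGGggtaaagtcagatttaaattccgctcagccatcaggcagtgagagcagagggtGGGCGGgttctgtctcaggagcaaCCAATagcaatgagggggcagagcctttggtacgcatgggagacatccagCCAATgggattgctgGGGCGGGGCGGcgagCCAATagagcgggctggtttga

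The 6 windows had little in common. The GC box was in 3 of them (Glp1r, Tgfb1, Fam83d) and the CCAAT box in 2 (Zfx, Fam83d), and each direction held genes with and without either motif. None of the 6 held the TATA box (TATAAA), the E-box (CACGTG) or the cAMP response element (TGACGTCA). Across 32851 RefSeq windows of the same length, 24.6% held the GC box, 28.4% the CCAAT box, 9.14% the TATA box, 4.34% the E-box and 0.828% the cAMP response element. A RefSeq window was matched to 39 of the 55 higher genes, 110 of the 196 lower genes and 12316 of the 17576 genes tested. The GC box was in 41% of the windows of higher genes, 34.5% of those of lower genes and 42.2% of those of all genes tested. The median number of CpG dinucleotides was 14 in windows of higher genes, 5 in windows of lower genes and 10 in those of all genes tested. A match in such a window is a description of its letters and not a binding site.

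Glp1r (chromosome 17, 30901817 to 30940791, plus strand) was at 1.51, 0.213 and 2.18 CPM in chow libraries 13, 14 and 15. On HFD it was at 9.51, 3.75, 11.6, 14.5, 12.2 and 6.9 CPM in libraries 23 to 28. The lowest HFD value came from library 24, and it was still above all 3 chow values. The log2 fold change was 2.88 ± 0.54 (SE; edgeR adjusted p = 0.00898), and without libraries 15 and 24 it was 3.72 ± 0.65 (adjusted p = 0.00135). In Nnat+/-p mice the level was already 6.54 to 9.97 CPM in the 3 non-obese mice on chow, 14.7 to 26.8 CPM in the 4 obese mice on chow, and 9.93 to 14.6 CPM in the 3 mice on HFD. The wild-type chow libraries were thus the lowest of all 19. The diet effect in Nnat+/-p mice (HFD against non-obese chow) was 0.57 ± 0.50 on the log2 scale (SE; adjusted p = 0.89), and the difference between genotypes, 2.30 ± 0.72, did not pass the correction over all genes (unadjusted p = 0.00305; adjusted p = 1.00).

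Rrp8 (chromosome 7, 105731730 to 105737385, minus strand) was also lowest in the wild-type chow libraries. It was at 0.754, 0 and 0.364 CPM on chow and at 2.84 to 10.2 CPM on HFD, with a median of 8.25. No HFD library reached down to the chow range, and the log2 fold change was 4.33 ± 0.86 (SE; edgeR adjusted p = 0.0185). Its span overlaps Ilk on the other strand, and the strand setting of the counting is not given in the sources used here. Kbtbd8 (chromosome 6, 95117240 to 95129790, plus strand) was at 0, 0.213 and 0.728 CPM on chow and between 4.58 and 13.7 CPM on HFD, with a log2 fold change of 4.52 ± 0.94 (SE; edgeR adjusted p = 0.0276). Kbtbd8os lies across it on the other strand. Of the Nnat+/-p chow libraries, 2 obese ones (16 and 17) were also low for Kbtbd8, at 0.608 and 0.917 CPM, and the other 5 were at 5.73 to 9.49 CPM.

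Zfx (chromosome X, 94074631 to 94123702, minus strand) was better measured, at 10.1, 8.74 and 11.5 CPM on chow and 20.1 to 29.5 CPM on HFD. The log2 fold change was 1.36 ± 0.28 (SE; edgeR adjusted p = 0.0256). All 10 Nnat+/-p libraries, on either diet, were at 19.4 to 33 CPM and so above the wild-type chow range. S100a10, which encodes p11, a partner of annexin A2 and of serotonin receptors, was at 10.1, 4.69 and 2.73 CPM on chow and 12.9 to 23.8 CPM on HFD (log2 fold change 1.70 ± 0.40, SE; edgeR adjusted p = 0.074). Its Nnat+/-p chow libraries spanned 11.8 to 39.7 CPM. Il4ra, the interleukin 4 receptor alpha chain, was at 1.01, 2.35 and 2.55 CPM on chow and 6.47 to 10.9 CPM on HFD (log2 fold change 2.14 ± 0.52, SE; edgeR adjusted p = 0.0874).

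**Figure D2:**
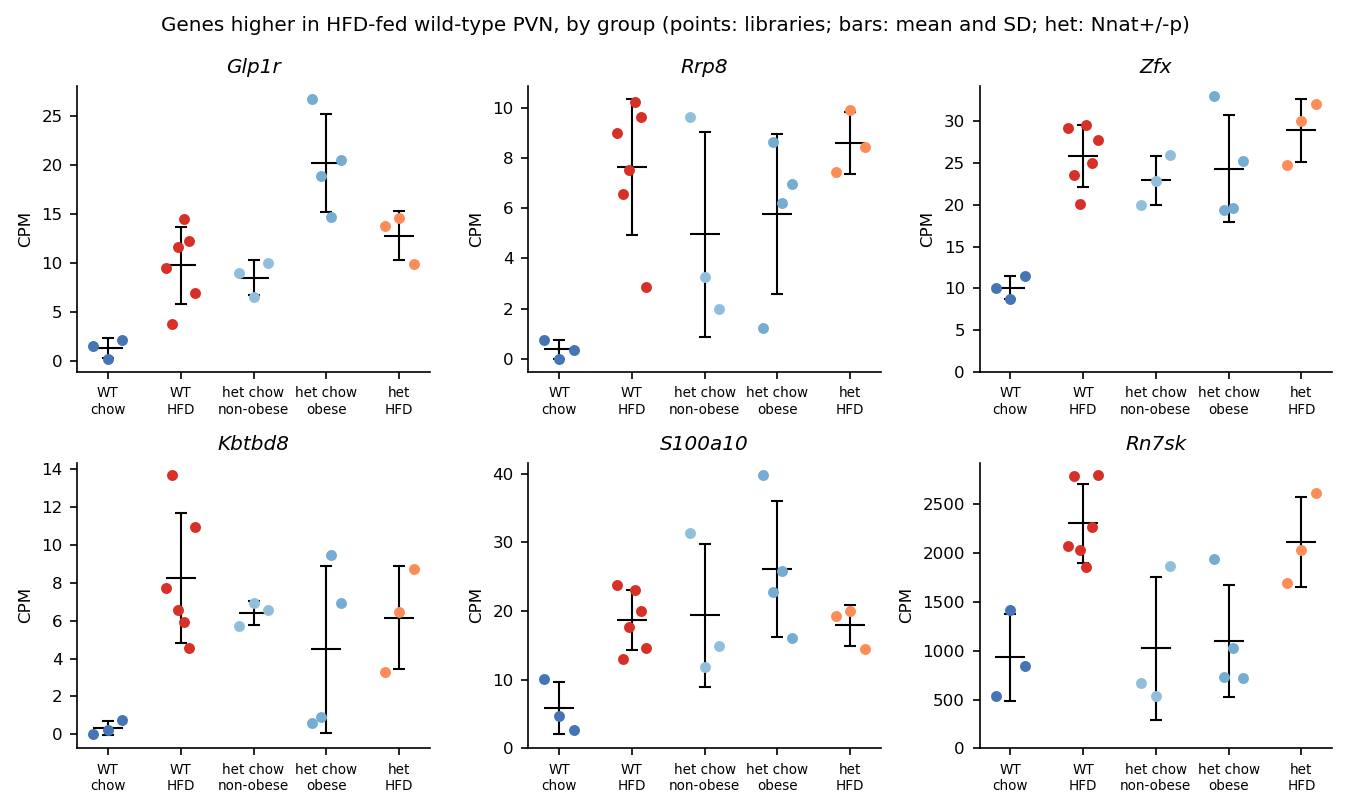
Level in CPM (linear vertical axes) of 6 genes called higher in HFD-fed wild-type PVN, in each of the 19 male PVN libraries; points are libraries, horizontal bars the group means and whiskers the SD (het: Nnat+/-p). For Glp1r and Zfx the 3 wild-type chow libraries lie below every other library, while Rn7sk on chow overlaps between genotypes.

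Lysmd3, Mgat4c, Maged2, Mtmr4, Slc25a38 and Nucb2 were also called higher, and none of their HFD libraries overlapped the chow range. Maged2, a melanoma antigen family member, went from 31.5 ± 2.0 to 60.7 ± 10.0 CPM (SD; log2 fold change 0.94, edgeR adjusted p = 0.108). Mtmr4, an endosomal lipid phosphatase, went from 36.6 ± 11.7 to 70.6 ± 14.6 CPM (SD; log2 fold change 0.95, edgeR adjusted p = 0.108). Lysmd3 had a log2 fold change of 2.02 (edgeR adjusted p = 0.0565), Mgat4c, a glycosyltransferase of N-glycan branching, 1.45 (adjusted p = 0.0895), and Slc25a38, the mitochondrial glycine carrier of heme synthesis, 1.82 (adjusted p = 0.125). Nucb2, whose product is the precursor of the satiety peptide nesfatin-1, was at 34.2, 29.6 and 26.9 CPM on chow and 35.8 to 81.3 CPM on HFD (log2 fold change 0.93 ± 0.27, SE; edgeR adjusted p = 0.173). The lowest HFD value of Nucb2 was again library 24, and its call was lost when any of 5 single libraries (13, 25, 26, 27 or 28) was left out.

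Small noncoding RNAs were called in both directions. Rn7sk, the 7SK RNA that holds back transcription elongation, was at 538, 1414 and 847 CPM on chow and at 2070, 2793, 2037, 1853, 2268 and 2803 CPM on HFD (log2 fold change 1.30 ± 0.34, SE; edgeR adjusted p = 0.117). The 2 H/ACA nucleolar RNAs Snora21 and Snora23 and the RNase P RNA Rpph1, named after their values were seen, had log2 fold changes of 2.06, 1.87 and 1.22 (edgeR adjusted p = 0.129, 0.151 and 0.206). Of 145 genes tested that are annotated as snoRNA, snRNA, scaRNA or misc_RNA, 4 were called higher and 4 lower. Over all genes tested, 0.313% were called higher and 1.12% lower. Rpph1 is annotated as a ribozyme and is not among the 145. The higher ones were Rn7sk, Snora21, Snora23 and the scaRNA Gm25395 (log2 fold change 1.31, edgeR adjusted p = 0.231). The lower ones, also named after their values were seen, were Gm25549, Gm24236, Gm27427 and the telomerase RNA Terc, with edgeR adjusted p of 0.0276, 0.0317, 0.132 and 0.191. In the Nnat+/-p chow libraries Rn7sk was at 1867 and 1937 CPM in libraries 22 and 16 but at 538 to 1033 CPM in the other 5.

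The lower genes were led by genes with little known role in hypothalamic neurons. Tgfb1, the cytokine transforming growth factor beta 1 (chromosome 7, 25687002 to 25705077, plus strand), was at 113, 33.3 and 35.5 CPM on chow and at 3.04, 2.62, 4.75, 2.14, 2.6 and 2.64 CPM on HFD. Its log2 fold change was -4.34 ± 0.64 (SE; edgeR adjusted p = 0.000731). Sardh, the mitochondrial sarcosine dehydrogenase of choline breakdown (chromosome 2, 27188393 to 27248337, minus strand, overlapped by Sardhos), was at 330, 99.1 and 72.6 CPM on chow and 2.14 to 8.06 CPM on HFD (log2 fold change -5.04 ± 0.80, SE; edgeR adjusted p = 0.000909). Gm16638, an antisense transcript across Tmc3 (chromosome 7, 83597048 to 83631880, minus strand), was at 377, 108 and 53.5 CPM on chow and 2.1 to 9.34 CPM on HFD (log2 fold change -5.28 ± 0.79, SE; edgeR adjusted p = 0.000731). In these genes library 13, the shallowest of the 9, was highest by 3 times or more, and the HFD libraries were all low. Of the 196 lower genes, 130 (66.3%) were highest in library 13, 29 in library 14 and 37 in library 15. The same shares over all genes tested were not computed.

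Other lower genes of the same rank were the homeobox gene Alx4, which is known from craniofacial and limb development, the mitotic spindle protein gene Fam83d, and Cfap44, a protein of motile cilia. Alx4 was at 73.6, 18.5 and 13.6 CPM on chow and at most 2.64 CPM on HFD (log2 fold change -5.11, edgeR adjusted p = 0.000976). Fam83d was at 54.8, 25.2 and 12.9 CPM on chow and at most 1.67 CPM on HFD (log2 fold change -5.07, edgeR adjusted p = 0.00141). Cfap44 had the smallest change of the 12, from 77.7, 48.8 and 31.8 CPM to 4.88 to 13.9 CPM (log2 fold change -2.48 ± 0.39, SE; edgeR adjusted p = 0.000909). Alx4 and Ext2 overlap on opposite strands.

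Another set was absent from the HFD libraries. Olfr411, an odorant receptor gene, was at 32.2, 18.3 and 3.46 CPM on chow and had no count in any of the 6 HFD libraries, which makes it at least 247-fold lower against a floor of 3 counts over the group. The processed pseudogene Gm11825 and the antisense transcript Gm30332 also had no HFD count and were at least 205-fold and 135-fold lower. Gm47791 (chromosome 1, 82770824 to 82771243, minus strand), a single short gene model annotated as protein-coding, was at 85.7, 11.3 and 6.37 CPM on chow with 1 count in all HFD libraries, a ratio of 1418 with a 95% counting interval of 255 to 56019.

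Receptor families of sensory tissues and unnamed gene models were among the lower genes, and are given as counts without a test. They included 7 odorant receptor and 3 vomeronasal receptor genes. Such genes are near 0 in most libraries, and a member enters the test through a group in which it has counts, so no share of either family is given. Gene models with Gm symbols made up 51 of the 196 lower genes (26%) and 10.4% of all genes tested. Only 66.3% of the lower genes were protein-coding, against 85.5% of the higher genes and 84.8% of all genes tested. Their median longest transcript was 2730.5 bases against 3262 for all genes, and their median GC content 49.2% against 49.6%.

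The level of the lower genes differed between Nnat+/-p chow libraries, which the comparison did not use. For each Nnat+/-p library, it was counted how many of the 196 lower genes exceeded all 6 wild-type HFD libraries. These genes were chosen for low values in those HFD libraries, and the same count over all genes tested was not made. The numbers therefore only compare the Nnat+/-p libraries with each other. In Nnat+/-p chow libraries 18, 19, 17, 20 and 21 the number was 134, 173, 112, 164 and 144. In chow libraries 22 and 16 it was 40 and 39, close to the 12, 35 and 37 in the 3 Nnat+/-p HFD libraries. Library 22 came from the lightest mouse of the table (27.4 g) and library 16 from an obese one (38.8 g). Sardh, for example, was at 0.798 and 2.84 CPM in libraries 22 and 16, at 77.7 to 364 CPM in the other 5 chow libraries, and at 2.68 to 8.02 CPM on HFD. Rn7sk went the opposite way in the same libraries, as given above. Among the Nnat+/-p libraries, the summed level of the 196 genes was highest in libraries 19 and 20 (4551 and 3914 CPM). Their totals were also the lowest of that genotype (2268021 and 3477384 counts). In wild-type chow libraries 13, 14 and 15 the sum was 4059, 2628 and 4252 CPM. The genes were called through high values in these 3 libraries, so their sums are not set against depth. In library 15 the sum included Camkv at 346 CPM and Nrgn at 252 CPM. Sardh and Gm16638 were at 72.6 and 53.5 CPM there, lower than in libraries 13 and 14. The part of depth was not tested beyond the thinning that follows. When all libraries were thinned to the smallest total, 65 genes were called lower, 58 of them among the 196. Without library 13, 84 were called lower, 62 of them among the 196. The part of RNA quality, of the separate cohorts and of library preparation in this pattern was not tested.

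**Figure D3:**
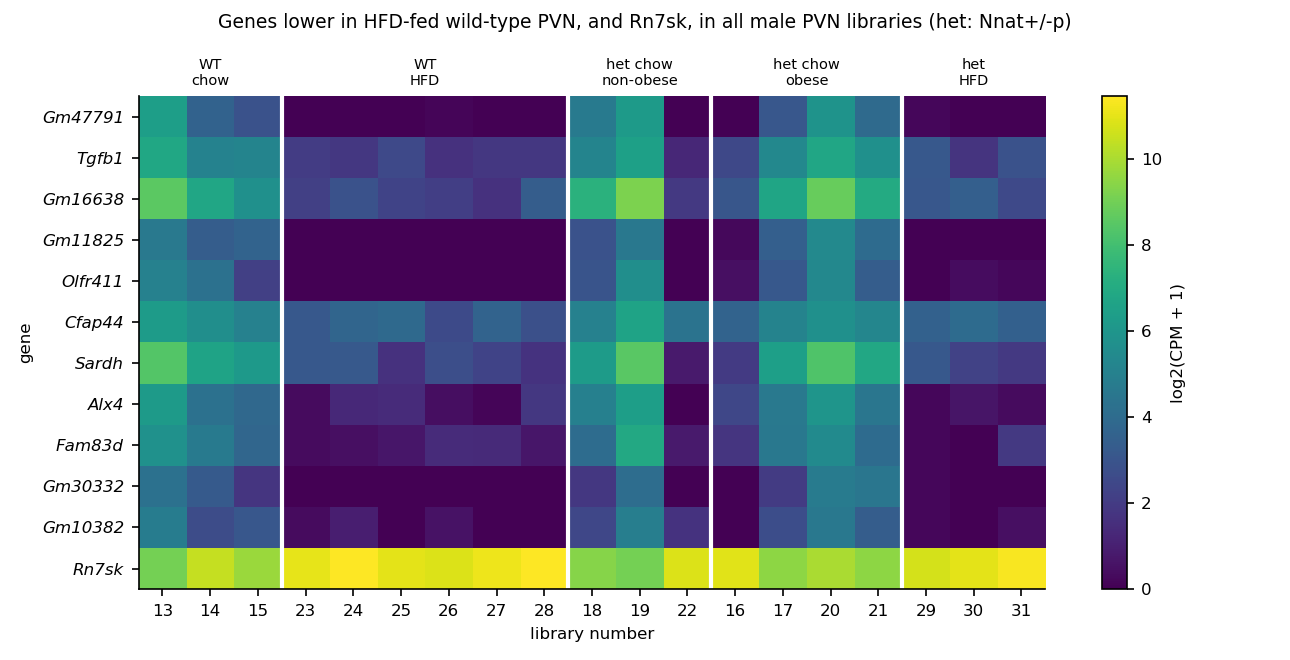
Level (colour, log2 of CPM + 1) of the 11 genes called lower in HFD with the smallest p that were not regional markers, and of Rn7sk, in all 19 male PVN libraries (horizontal axis, library numbers grouped by genotype and diet; het: Nnat+/-p). Chow libraries 22 and 16 are near the HFD libraries for most of these genes, and Rn7sk is high where they are low.

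The diet comparison in Nnat+/-p mice used none of the 9 wild-type libraries, although the fit shares 1 estimate of spread. HFD against non-obese chow in Nnat+/-p mice called 16 genes (0.091%), 1 higher and 15 lower. Of the 196 genes lower in wild-type mice, 174 had the same sign and 13 were also called. Their median was -3.49 in Nnat+/-p mice and -4.46 in wild-type mice. Of the 55 higher genes, 36 had the same sign and none was called, with medians of 0.26 and 1.31. The Nnat+/-p chow libraries each had 35 to 49 of the 55 higher genes above all 3 wild-type chow libraries, and the Nnat+/-p HFD libraries 51 to 54. These genes were chosen for low values in the wild-type chow libraries, and the same count over all genes tested was not made. Over all genes tested, 59.6% had the same sign in both. No gene was called (0% of those tested) in the test of the difference in diet effect between genotypes, with 675 at an unadjusted p under 0.05 and 2 called by DESeq2.

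The ARC is tabulated and scaled on its own, so its values stand beside those of the PVN without a test between them. Most ARC libraries carry the same labelled weights as PVN libraries, in the same order, so both nuclei appear to come from the same mice and the ARC values are not independent of those of the PVN. Wild-type HFD against chow in the ARC (6 and 2 libraries) called 182 of 15753 genes (1.16%), 78 higher and 104 lower. Of the genes lower in the PVN, 126 were tested in the ARC and 13 were called lower, with a median of -1.18. Sardh was at 62.2 and 23.5 CPM on chow and at most 6.57 CPM on HFD in the wild-type ARC (log2 fold change -3.26 ± 0.52, SE; edgeR adjusted p = 0.00949), and Gm16638 was at 86.4 and 28.6 CPM on chow and at most 8.12 CPM on HFD (log2 fold change -3.61 ± 0.66, SE; edgeR adjusted p = 0.0182). Of the genes higher in the PVN, 54 were tested in the ARC and 4 were called higher, with a median of 0.29. Glp1r in the wild-type ARC was at 1.6 and 0.751 CPM on chow and 1.89 to 10.1 CPM on HFD (log2 fold change 2.15 ± 0.96, SE; edgeR adjusted p = 0.526). Zfx was at 31.9 and 23.3 CPM on chow and 12.5 to 40 CPM on HFD, with no shift in 1 direction.

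A second group of lower genes marks neighbouring regions. Pomc, the precursor of melanocortins in arcuate neurons, was at 0.754, 4.48 and 110 CPM in chow libraries 13, 14 and 15, and at 0.459 to 6.19 CPM on HFD. Only library 15 was high, the highest HFD value was that of library 24, and the log2 fold change of -4.18 (edgeR adjusted p = 0.0109) became -0.28 (adjusted p = 0.928) without library 15. Nr5a1, the defining transcription factor of the ventromedial hypothalamus, was at 7.54, 4.26 and 61.8 CPM on chow and at most 1.86 CPM on HFD (log2 fold change -4.96, edgeR adjusted p = 0.0296). Its log2 fold change without library 15 was -2.88 (adjusted p = 0.348). Adcyap1 and Fezf1, also ventromedial genes in the mouse, were at 137 and 56.8 CPM in library 15, and at no more than 8.53 CPM in the other 2 chow libraries. Adcyap1 without library 15 turned to a log2 fold change of 0.65 (adjusted p = 0.541), and Fezf1 went from -2.77 to -0.18 (adjusted p = 0.149 and 0.954).

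Genes of forebrain excitatory neurons behaved in the same way in 1 or other chow library. Nrgn, the postsynaptic calmodulin-binding protein neurogranin, was at 16.8, 49.9 and 252 CPM on chow and 3.45 to 29.8 CPM on HFD (log2 fold change -3.02 ± 0.55, SE; edgeR adjusted p = 0.00685). Without libraries 15 and 24 it was -1.55 ± 0.54 (adjusted p = 0.212), and without library 15 alone the call was lost (-1.32, adjusted p = 0.281). Slc17a7, a vesicular glutamate transporter from the list of cortex, hippocampus and striatum markers, was at 6.03, 39.7 and 0 CPM on chow and at most 1.53 CPM on HFD (log2 fold change -5.15, edgeR adjusted p = 0.0739). Its level rested on library 14, without which the log2 fold change was -2.78 (adjusted p = 0.509). Without libraries 15 and 24, with library 14 kept, it was -5.48 ± 1.13 (SE; adjusted p = 0.0115). Rbfox3, the pan-neuronal antigen NeuN, was at 31.4, 52.9 and 89.9 CPM on chow and 20.2 to 46.9 CPM on HFD (log2 fold change -0.93, edgeR adjusted p = 0.185), and the call was lost without library 15 (adjusted p = 0.531), as it was without library 25, 26, 27 or 28. Over the ventromedial marker list, the summed level was 26.9 to 298 CPM on chow and 19.1 to 54 CPM on HFD. Over the arcuate list it was 26.9 to 270 CPM on chow and 33.1 to 110 CPM on HFD.

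**Figure D4:**
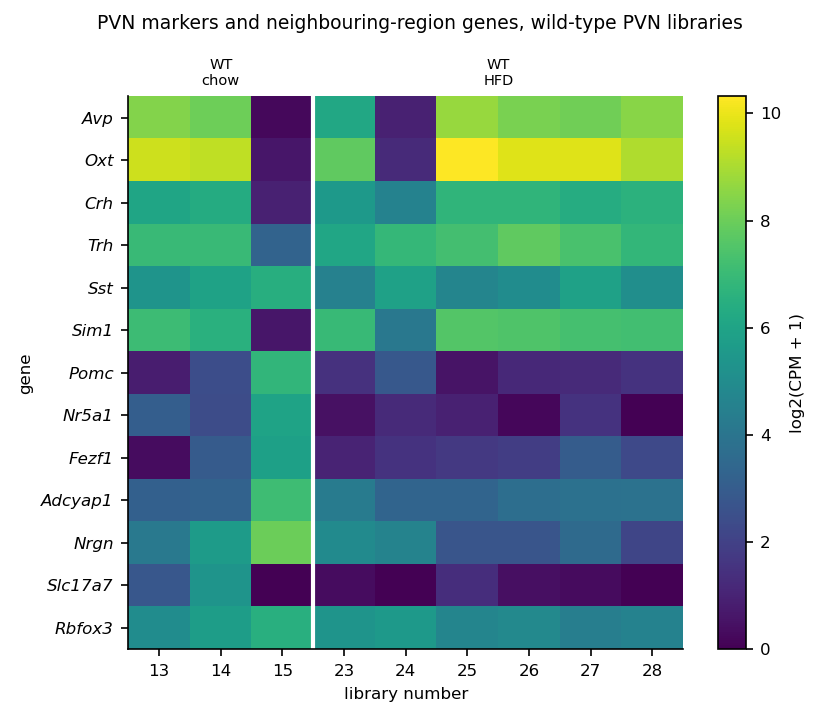
Level (colour, log2 of CPM + 1) of 6 PVN markers and 7 genes of neighbouring regions or of neurons in general, in the 3 chow and 6 HFD wild-type libraries (horizontal axis, library numbers). Library 15 is low for Avp, Oxt, Crh and Sim1 and high for Pomc, Nr5a1, Fezf1, Adcyap1 and Nrgn, and library 24 is low for Avp, Oxt and Sim1.

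The hormones of the PVN itself were not called in the main comparison. Over 18 alternative settings, including those chosen after seeing the data, Crh, Trh, Sst and Sim1 were each called in 1. Avp and Oxt were called in none. Oxt was at 730, 645 and 0.546 CPM on chow and 223, 1.31, 1275, 904, 898 and 544 CPM on HFD (log2 fold change 0.48 ± 0.85, SE; edgeR adjusted p = 0.894). Avp had a log2 fold change of 0.23 ± 0.77 (adjusted p = 0.951), Crh 0.66 ± 0.52 (adjusted p = 0.715), Trh 0.69 ± 0.40 (adjusted p = 0.585) and Sst -0.71 ± 0.46 (adjusted p = 0.638). Within libraries 13 and 14, Crh was at 66.3 and 80.4 CPM and Trh at 125 CPM in both, against 46.9 to 107 CPM and 67.6 to 224 CPM in the HFD libraries other than 24, so the ranges overlapped. Sim1 was at 133 and 93 CPM in libraries 13 and 14 and at 121 to 185 CPM in the same 5 HFD libraries. None of the 5 hormones, 7 PVN transcription factors or 11 granins and prohormone-processing genes was called, with medians of 0.48, 0.35 and 0.11. Without libraries 15 and 24 none was called either, and the medians were 0.19, 0.17 and 0.29.

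Among the 28 listed receptors for appetite signals and neuropeptides, Glp1r was the only one called, and the list median was 0.09. Receptor genes outside the list were also called, such as Il4ra in the higher direction, as given above. Galr2, Gpr83, Agtr2 and Htr1a were called lower, with log2 fold changes of -4.03, -2.94, -6.10 and -1.53 (edgeR adjusted p = 0.140, 0.191, 0.120 and 0.241). Without libraries 15 and 24 the calls of Gpr83 and Htr1a were lost. Mc4r was at 3.77, 8.31 and 3.09 CPM on chow and 0.187 to 14.8 CPM on HFD (log2 fold change 0.54 ± 0.70, SE; edgeR adjusted p = 0.844). Of 15 other neuropeptide genes, Nucb2 was higher and Adcyap1 lower. None of the 20 leptin and insulin signalling genes was called, with a median of -0.05. Without libraries 15 and 24, Stat3, the transcription factor downstream of the leptin receptor, was called higher (log2 fold change 0.74 ± 0.27, SE; edgeR adjusted p = 0.237) and the insulin receptor substrate Irs1 lower (-0.95 ± 0.36, SE; adjusted p = 0.249). These 2 genes were at 31.7, 40.9 and 55.3 CPM and at 41.2, 23.5 and 18.9 CPM on chow in all 3 libraries, and their HFD ranges of 47.3 to 72.7 CPM for Stat3 and 10.1 to 33.9 CPM for Irs1 overlapped these values. For Stat3 only chow library 15 was within the HFD range. The highest HFD value of Irs1 was that of library 24. The next was 23.5 CPM in library 26, level with chow library 14.

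With all 9 libraries, the stress axis and the glia gave no called gene. Of 17 glucocorticoid receptor targets none was called, and the list median was -0.26. Fkbp5, a chaperone induced by glucocorticoids, was at 25.1, 23.9 and 18.7 CPM on chow and 10.1 to 21.1 CPM on HFD (log2 fold change -0.70 ± 0.33, SE; unadjusted p = 0.0444, edgeR adjusted p = 0.473). Gfap, the intermediate filament of astrocytes, was at 48.3, 79.7 and 41.3 CPM on chow and 45.5 to 91.1 CPM on HFD (log2 fold change 0.31 ± 0.26, SE; adjusted p = 0.74). Of 15 microglial genes 13 had a negative fold change, with a median of -0.41, and none was called. Their summed level was 213 to 265 CPM on chow and 150 to 216 CPM on HFD. None of 12 NF-kB and cytokine genes, 14 homeostatic and 8 reactive astrocyte genes, 16 oligodendrocyte and 8 precursor genes or 16 vascular genes was called, with medians of -0.38, -0.10, 0.00, -0.32, -0.29 and 0.24. Without libraries 15 and 24, Cp, the ferroxidase ceruloplasmin of the reactive astrocyte list, was called lower (-2.02 ± 0.47, SE; edgeR adjusted p = 0.0427) and Pecam1, an endothelial adhesion molecule, higher (1.15 ± 0.44, SE; adjusted p = 0.249).

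Few genes of protein synthesis and turnover were called, and with all 9 libraries the summed levels of both lists overlapped between diets. Only chow library 15 reached the HFD range. Ribosomal protein sums were 1869, 2039 and 2228 CPM in chow libraries 13, 14 and 15 and 2174 to 2924 CPM on HFD. Proteasome sums were 1261, 1373 and 1735 CPM and 1416 to 1741 CPM. Library 24 was the lowest HFD library in both. Exact permutation, two-sided, gave p = 0.0357 and 0.19 (0.488 and 0.651 adjusted over all lists). Of 72 cytosolic ribosomal protein genes, 51 had a positive fold change, the median was 0.34 and 2 were called higher, Rps19 (28.7 ± 6.5 to 49.7 ± 14.7 CPM, SD; log2 fold change 0.79, edgeR adjusted p = 0.248) and Rpl31. Rpl31 had no count in any chow library and 0.714 to 3.56 CPM on HFD, at least 10.0-fold higher against 3 counts over the chow group. At an unadjusted p under 0.05 in the edgeR test, 12 ribosomal protein genes were higher on HFD and 1 lower. Many ribosomal protein genes have near-identical pseudogene copies, so the counts of single members are uncertain. Of 31 proteasome genes, 22 had a positive fold change with a median of 0.13, and Psmc2, an ATPase of the regulatory particle, was called (39.3 ± 7.5 to 61.7 ± 2.9 CPM, SD; log2 fold change 0.65, edgeR adjusted p = 0.238). Neither call was firm: that of Psmc2 was kept in only 1 of 9 fits that each left out 1 library (library 15), and that of Rps19 was lost without library 13, 15, 25, 26, 27 or 28.

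Without libraries 15 and 24, with 2 chow and 5 HFD libraries left, 974 genes were called, 323 higher (1.63% of 19844 tested) and 651 lower (3.28%). The set included 45 of the 55 higher and 165 of the 196 lower genes. In the lists, called genes were then found for protein turnover and respiration in the upward direction: 5 of 31 proteasome genes (Psma2, Psmb4, Psmb6, Psmc2 and Psmc5), 7 of 74 ribosomal protein genes, 5 of 38 nuclear genes for respiratory complexes II to V (Sdhc, Sdhd, Uqcrh, Atp5c1 and Atp5k) and 1 of 36 for complex I (Ndufv1). The medians of the 4 lists were 0.31, 0.44, 0.34 and 0.30, against -0.01 for all genes tested. In the downward direction, 2 of 18 immediate early genes were called, Fosb (-2.22 ± 0.71, SE; edgeR adjusted p = 0.175) and Egr3 (-2.72 ± 0.99, SE; adjusted p = 0.225). Psma2, a proteasome core subunit, shows where library 15 stood. It was at 8.04 and 17.9 CPM in libraries 13 and 14, at 29.6 CPM in library 15, and at 28.7 to 38.9 CPM on HFD. Uqcrh, a hinge protein of complex III, was at 48.3, 55.9 and 76.4 CPM in chow libraries 13, 14 and 15 and 76.3 to 106 CPM on HFD. With 2 chow libraries left, 1 of them the shallowest of the 9, these counts rest on fewer mice than the comparison of all 9.

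**Figure D5:**
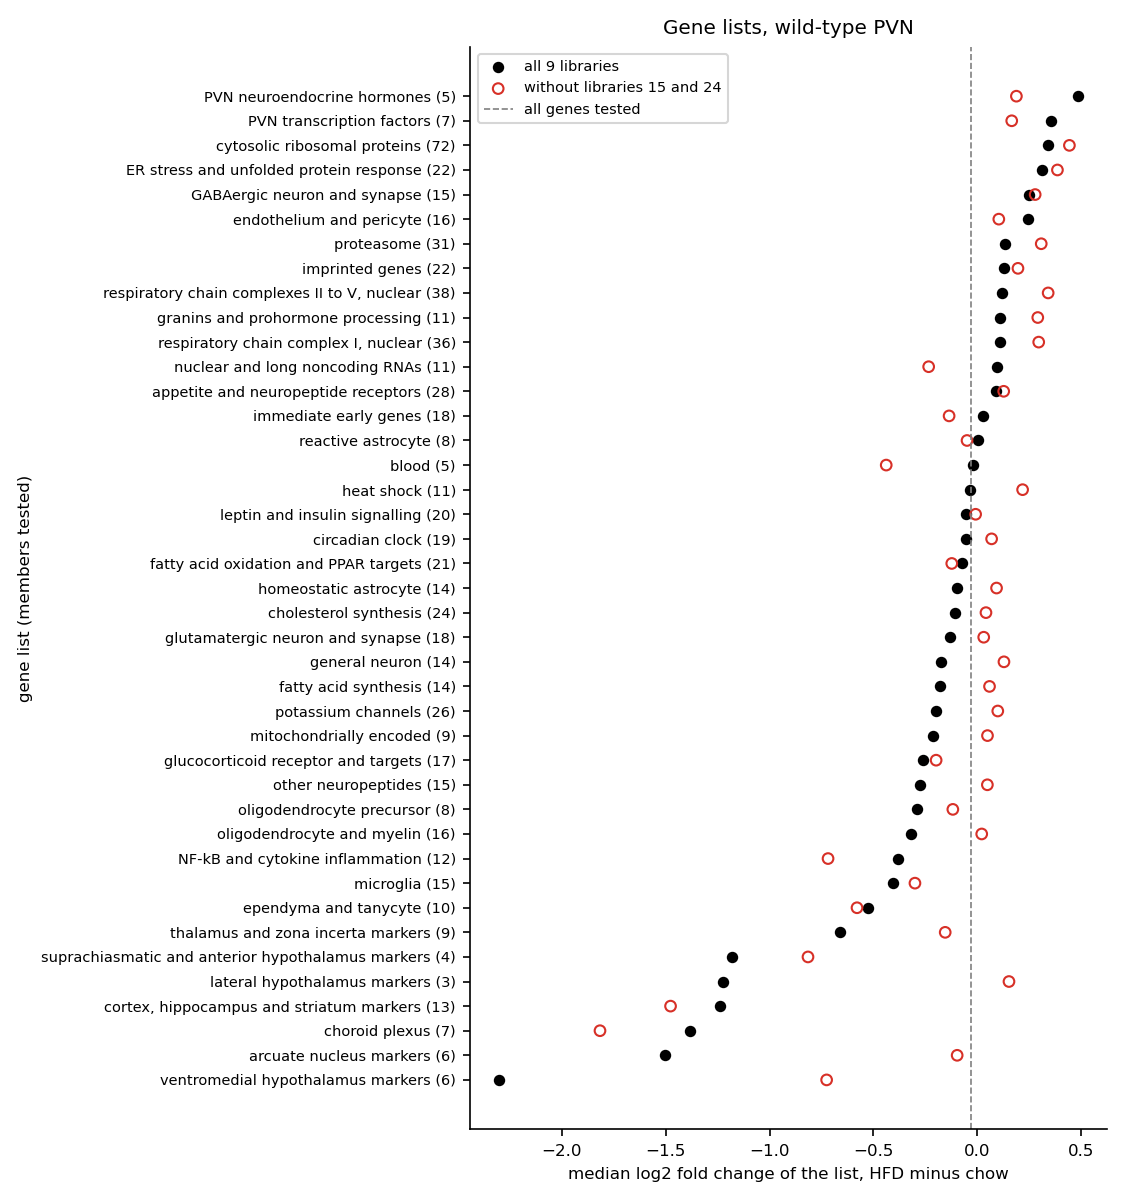
Median log2 fold change of HFD over chow (horizontal axis) of each of the 41 gene lists (vertical axis, members tested in brackets), with all 9 libraries (filled points) and without libraries 15 and 24 (open points); the dashed line is the median of all genes tested, -0.03. The lists of the ventromedial, arcuate and lateral hypothalamus are the lowest with all libraries together with those of choroid plexus, cortex and the suprachiasmatic region, and the first 3 move toward 0 without libraries 15 and 24.

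The remaining lists did not separate the diets by called genes. With all 9 libraries none was called among 22 genes of the unfolded protein response (median 0.31, 19 positive), 24 of cholesterol synthesis (-0.11), 14 of fatty acid synthesis (-0.18), 21 of fatty acid oxidation (-0.07), 9 mitochondrially encoded genes (-0.21), 19 clock genes (-0.06), 18 immediate early genes (0.03) or 26 potassium channels (-0.20). The same held for 15 GABAergic genes (0.25), 11 heat shock genes (-0.03), 11 nuclear and long noncoding RNAs (0.09), 36 and 38 nuclear genes of complex I and complexes II to V (0.11 and 0.12), 10 ependymal and tanycyte genes (-0.52), 7 choroid plexus genes (-1.38), 5 blood genes (-0.02) and 9 markers of the thalamus and zona incerta (-0.66). Among imprinted genes, 16 of 22 had a positive fold change with a median of 0.13 and none was called, but their summed level did not overlap, at 6352 to 6640 CPM on chow and 7453 to 7994 CPM on HFD. With all 9 libraries, that of the imprinted genes was the only 1 of the 41 list sums to separate. By exact permutation, two-sided, p was 0.0119, the smallest that 84 splits allow, and 0.488 when adjusted over the 41 lists. Peg3, a zinc finger gene expressed from the paternal copy, was at 1533, 1348 and 1447 CPM on chow and 1596 to 2141 CPM on HFD (log2 fold change 0.41 ± 0.20, SE; edgeR adjusted p = 0.47), and Impact, a translational regulator, at 375, 443 and 399 CPM on chow and 519 to 700 CPM on HFD (0.48 ± 0.18, SE; adjusted p = 0.327).

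The genes least dependent on single libraries were few. Over 16 alternative settings, which left out each of the 9 libraries, libraries 15 and 24 together, or changed the test, scaling, filter, groups or depth, 4 higher genes were called every time: Glp1r, Rrp8, Kbtbd8 and S100a10. Of the lower genes 18 were called every time, among them Tgfb1, Sardh, Gm16638, Alx4, Fam83d, Cfap44, Olfr411 and Gm47791.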

How the data were processed

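RNA from laser-captured nuclei was made into stranded total RNA libraries with a low-input kit and sequenced as single reads. Per the submitters' processing notes, reads were aligned with STAR 2.5.0a to GRCm38. The counting tool, annotation release and strand setting are not given in the sources used here. The authors deposited raw counts per gene for the male PVN and the male ARC. The female PVN table was not used, and neither was 1 column of the used tables that no label matched. Of 53379 gene identifiers, 53274 were matched to a symbol.

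The 19 male PVN libraries were fitted together with edgeR 4.0.16 (R 4.3.3), with TMM factors, genes kept by filterByExpr at a minimum count of 10, group means as the only terms, and quasi-likelihood tests with Benjamini-Hochberg adjustment. Genes were called at an adjusted p under 0.25. The ARC table was fitted on its own in 20 libraries, and 1 ARC library with a total under 25% of the median was left out. CPM were computed from the counts and TMM factors. The step was tested on simulated counts. DESeq2 1.42.0 and limma 3.58.1 (voom with sample quality weights), other scaling, filtering, depth and groups, and leaving out libraries were the alternatives. Intervals and floors of 3 counts cover counting error only. The 9 PVN libraries all differ in labelled weight and were taken as separate mice, which no label states, so p-values measure the spread between these samples. The ARC libraries repeat most PVN weights.

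Named genes were, for each direction, the 12 calls of lowest p, the called members of the 41 gene lists (698 genes), and 11 genes named whatever their result. Other genes in the text were chosen after their values were seen. Results that need certain withheld genes are not reported here. The comparison and lists were chosen with earlier results of these data known.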

Additional observations from a re-analysis of the deposited data

Results flagged for a closer look

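Among the 44 named genes, 8 had 1 HFD library that stood apart from the other 5 by Dixon's criterion for 6 samples, where chance gives about 1 in 20. Lysmd3 was at 17.3 CPM in library 25, with the nearest library at 11.3 CPM. Maged2 was at 79.8 CPM in library 28, with the nearest at 61.9 CPM. Psmc2 was at 67.4 CPM in library 27, with the nearest at 62.0 CPM. Tgfb1 was at 4.75 CPM in library 25, with the nearest at 3.04 CPM, and Slc17a7 was at 1.53 CPM in the same library, with the nearest at 0.357 CPM. Gm47791 was at 0.119 CPM in library 26, from 1 count, and at 0 in the others. Pomc was at 6.19 CPM in library 24, which had few PVN marker counts, with the nearest at 1.83 CPM. Fkbp5 was at 21.1 CPM in library 26, with the nearest at 13.8 CPM.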

How the results depend on the processing

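The number of genes called moved with the libraries more than with the scaling. From 251 (55 higher, 196 lower), it was 303 with RLE size factors, 213 with only the groups compared, and 334 with limma voom (33 higher, 301 lower). It was 469 with DESeq2 (145 higher, 324 lower), 1134 without the filter (174 and 960), 81 at equal depth (16 and 65), 26 at an adjusted p under 0.05 (4 and 22) and 974 without libraries 15 and 24 (323 and 651). Leaving out 1 library at a time gave 82 to 1083 called, 17 to 365 higher and 65 to 718 lower: 112 without library 13, 808 without 14, 1083 without 15, 159 without 23, 162 without 25, 82 without 26, 103 without 27 and 109 without 28. The share of calls that were higher was 21.9%, but 30.9% with DESeq2, 9.88% with limma voom and 33.2% without libraries 15 and 24. Chosen after seeing the data, leaving out libraries 13 and 24 gave 203, and libraries 13, 15 and 24 gave 158 with 95 lower, where the lone chow library was assumed to vary like the other groups. The test between genotypes gave 2 with DESeq2, 30 without the filter, 0 to 3 with 1 library left out, and 19 under both added alternatives. Of the named genes that were called, only Adcyap1 changed sign, to 0.72 without libraries 15 and 24, 0.65 without 15 and 0.69 without 13, 15 and 24, with a range of -2.50 to 0.65 over single libraries left out. Its high chow value was that of library 15. Avp, Oxt and Gfap, which were not called, also crossed 0, to no lower than -0.33. The causes of the other shifts were not tested. No paired analysis was possible because the groups compared share no replicate numbers. With 3 chow libraries, the shallowest at 3192351 counts, genes near 1 CPM rest on few counts.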
